A study of Homo sapiens with 18 samples.

Results

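The replication-dependent histone genes supply the bulk of new chromatin protein in S phase, and 68 of the 60707 genes in the count table were of this kind. They were found by symbol among protein-coding genes: 17 H2A genes (H2AC names), 18 H2B genes (H2BC names), 13 H3 genes (H3C names), 15 H4 genes (H4C names) and the linker histones H1-1 to H1-5. The 18 RNA-seq libraries came from Raji cells, an established line of B cells grown from a human Burkitt lymphoma. All samples carry the genotype Smarca4+/+, and the series describes an auxin-inducible degron for SMARCA4 (BRG1), the ATPase of the BAF chromatin remodelling complex. In such a system a tagged protein is broken down when auxin is given. The 6 groups were GFP high and GFP low cells at 24, 48 and 72 h, with 3 libraries each. The sources used here do not give the meaning of the GFP signal, the way the fractions were separated, which groups had auxin or when the clock for the hours started, so groups are named by their labels alone. The libraries came in 3 sets, one unnumbered with column names that join GFP to BRG1 and the others numbered 1 and 2. Nothing says that they were separate cultures, so the p-values below measure library spread only, and that spread may be technical.

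Replication-dependent histones are made when DNA is copied, so that each new stretch of DNA can be wrapped. H2A, H2B, H3 and H4 form the nucleosome core, and H1 binds the linker DNA between nucleosomes. Most of these genes lie in clusters, lack introns and give mRNAs that end in a conserved stem-loop in place of a poly(A) tail. The stem-loop is bound by SLBP, the 3′ end is cut with the help of the U7 snRNP, and the mRNA is degraded quickly when replication stops. The libraries here were made by removing ribosomal RNA with the RiboErase kit, a method that does not select for poly(A) tails, so these mRNAs can be counted.

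The stem-loop is shown because it is the feature that sets these mRNAs apart from poly(A) mRNAs. In GENCODE 29 (GRCh38), 34 of the 68 genes had an annotated 3′ UTR of 16 bases or more, and 30 of those held the stem-loop with a stem of 6 base pairs and a loop of 4 bases. The remaining members have no such UTR in that annotation or no match in it. Over all genes, 113 of 19423 with a UTR of that length (0.58%) held a match, 83 of them outside the members. The 30 stem-loops fell into 5 sequences, printed below from 5′ to 3′ as DNA letters with the stem-loop in capitals and 5 flanking bases on each side.
H2BC18, chr1:149811885-149811900, minus strand: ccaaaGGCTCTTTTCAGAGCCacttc
H4C2, chr6:26026901-26026916, minus strand: ccaatGGCCCTTTTCAGGGCCgccca
H2BC5, chr6:26158587-26158602, plus strand: ccaaaGGCTCTTTTAAGAGCCacgca
H4C9, chr6:27139654-27139669, plus strand: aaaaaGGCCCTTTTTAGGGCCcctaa
H2AC11, chr6:27133515-27133530, plus strand: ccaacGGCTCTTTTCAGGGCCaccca
The coordinates are those of the capitals. The form in H2BC18 was carried by 17 members from the H2A, H2B and H3 classes. One of them is H2BC15, by a GENCODE 29 transcript whose match lies at 27865778 to 27865793 on chromosome 6. That is past the end of H2BC15 in the count table (27855709) and inside H2AC16 (27865317 to 27865798), for which no match was counted. The form in H4C2 was carried by 5 members, all of class H4. The form in H2BC5 was shared with H2BC4, H2BC7 and H3C8, and the form in H4C9 with H4C14 and H4C15. H2AC11 alone held the fifth form.

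The promoters show which letters the classes share. RefSeq (GRCh38.p14) gave a window from 250 bases before to 50 bases after the start for 63 members. CCAAT, the letters bound by NF-Y, was found on either strand in all members of H1, H2A, H2B and H3 with a window, but in 3 of 13 of H4, against 34.65% of all RefSeq promoter windows. TATAA was found in 92.1% of the members and in 20.49% of all windows. The octamer ATTTGCAT, the site of OCT1 and OCT2, was found in 11 of 16 H2A and 14 of 18 H2B windows, in no window of the other classes and in 1.77% of all windows. Windows of divergent H2A and H2B neighbours can overlap, so the same octamer can count for both genes, as in H2AC11 and H2BC11. The H1 box AAACACA was in 5 of 5 H1 windows, 2 of 11 H3 windows, 1 of 16 H2A windows and 5.66% of all windows. The core GGTCCG of the H4 subtype element, the site of HINFP, was in 12 of 13 H4 windows and 11.24% of all windows. It was also in 1 window each of H2A, H2B and H3. Every motif was searched on both strands, and none of the 5 contains another. Below, the windows of 5 members are given 5′ to 3′ on the gene's strand with these motifs in capitals.
H1-5, chr6:27867539-27867838, minus strand: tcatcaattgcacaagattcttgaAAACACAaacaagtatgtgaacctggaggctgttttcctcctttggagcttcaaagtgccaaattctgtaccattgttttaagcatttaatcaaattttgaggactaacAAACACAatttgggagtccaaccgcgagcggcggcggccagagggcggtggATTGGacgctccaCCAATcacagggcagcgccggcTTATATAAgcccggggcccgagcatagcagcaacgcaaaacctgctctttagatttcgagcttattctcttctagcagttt
H2AC11, chr6:27132793-27133092, plus strand: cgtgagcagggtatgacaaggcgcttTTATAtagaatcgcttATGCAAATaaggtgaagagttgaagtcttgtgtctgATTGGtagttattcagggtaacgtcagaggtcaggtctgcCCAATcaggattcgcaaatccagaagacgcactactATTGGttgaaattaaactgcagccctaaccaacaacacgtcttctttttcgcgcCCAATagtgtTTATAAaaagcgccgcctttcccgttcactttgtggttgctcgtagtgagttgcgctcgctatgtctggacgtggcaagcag
H2BC11, chr6:27132746-27133045, minus strand: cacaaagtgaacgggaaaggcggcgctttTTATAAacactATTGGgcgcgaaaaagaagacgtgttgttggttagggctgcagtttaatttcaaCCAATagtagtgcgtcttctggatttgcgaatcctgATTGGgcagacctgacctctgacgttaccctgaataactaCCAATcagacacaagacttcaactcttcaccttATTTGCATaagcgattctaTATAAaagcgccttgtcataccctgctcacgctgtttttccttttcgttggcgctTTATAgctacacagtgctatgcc
H3C2, chr6:26032050-26032349, minus strand: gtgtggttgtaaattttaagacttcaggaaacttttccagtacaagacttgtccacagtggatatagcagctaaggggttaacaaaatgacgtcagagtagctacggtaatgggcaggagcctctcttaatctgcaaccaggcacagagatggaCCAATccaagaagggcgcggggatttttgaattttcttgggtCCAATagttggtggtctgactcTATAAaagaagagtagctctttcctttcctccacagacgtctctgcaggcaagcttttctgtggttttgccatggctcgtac
H4C2, chr6:26027234-26027533, minus strand: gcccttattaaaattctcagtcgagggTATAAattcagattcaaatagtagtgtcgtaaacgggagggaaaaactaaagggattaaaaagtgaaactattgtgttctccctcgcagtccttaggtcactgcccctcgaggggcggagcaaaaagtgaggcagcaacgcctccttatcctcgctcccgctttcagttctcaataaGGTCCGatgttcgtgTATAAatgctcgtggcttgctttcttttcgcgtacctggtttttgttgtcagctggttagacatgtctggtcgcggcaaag
H1-5, H2AC11, H3C2 and H4C2 had the highest mean CPM of their classes (defined below, not scaled to length). H2BC11 is the divergent neighbour of H2AC11, so the windows of H2AC11 and H2BC11 cover much of the same DNA. H3C2 held CCAAT and TATAA but none of the class motifs. A match is a description of these letters and not a measured binding site.

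Total counts ran from 27257876 to 55419458 per library. B cell markers summed to between 6639 and 7723 CPM (counts per 1000000 counts of the library, TMM-scaled) in every library, while the 5 T cell markers summed to at most 7.51 CPM, the 4 myeloid markers to at most 2.42, the 4 erythroid markers to at most 0.84 and the 4 epithelial or fibroblast markers to at most 9.66. At 24 h the T cell sum ran from 6.84 to 7.45 CPM in GFP high cells and from 2.76 to 3.28 CPM in GFP low cells, and the myeloid sum from 0.762 to 0.99 and from 2.13 to 2.42. The epithelial or fibroblast sum ran from 5.08 to 5.35 CPM in GFP high and from 7.66 to 9.66 in GFP low at that time. It was nearly all COL1A1, as EPCAM, KRT8 and KRT18 reached at most 0.06, 0.07 and 0.03 CPM in any library. Whether these traces take part in the results below was not tested. SMARCA4 mRNA, which does not report on degron action at the protein, was higher in GFP low by 0.50 ± 0.03 (log2 fold change ± SE), 0.11 ± 0.03 and 0.20 ± 0.03 at 24, 48 and 72 h. The edgeR adjusted p-values were 3.3e-12, 0.0075 and 2.2e-05.

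Raji cells used a part of the histone repertoire. After the filter on low counts 58 of the 68 genes were tested, 46 of them with a mean of 10 CPM or more. The 10 others never exceeded a mean of 0.0909 CPM, and H4C7 had no count in any library. They were H1-1, H2AC1 and H2BC1, H2AC25 and H2BC26 at the small chromosome 1 cluster, H2BC3, H3C3, H3C4, H4C6 and H4C7. By contrast H3C2, of the same class and chromosome as H3C3 and H3C4, averaged 291.8 CPM.

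Some low values have a limit in the annotation. Exons of another gene in the table cover 96.6% of H3C4 and 85.3% of H2AC7 on the same strand, and exons of H3C12 cover 71.0% of H2AC17. The sources used here do not say how reads in shared exons were counted, so the mean levels of 0.46 CPM for H2AC7 and 0.93 for H2AC17 are uncertain. H2AC15 lies wholly within an exon of H2BC15 on the opposite strand. In addition, 14 members share over 20% of their 50-base words with another gene, and counts of such near-identical copies may be split or lost. Words were computed for 66 members. H3C2 and H3C3 were not among them, so whether they have such copies is not known. H2AC18 and H2AC19, H3C14 and H3C15, H4C14 and H4C15, and H4C11 and H4C12 are such pairs.

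Levels between genes were compared per length, as mean CPM per kilobase of annotated exon. H1-5 was highest at 686 CPM per kilobase, followed by H3C2 at 571, H1-2 at 512, H1-4 at 491 and H2BC12 at 441. The fourth expressed linker histone, H1-3, reached 45.5. The highest H2A gene on this scale was H2AC13 at 291, and the highest H4 gene was H4C3 at 339. H2AC13 and H2BC12 belong to the members with near-identical copies. The annotated exons of 22 tested members ran past 1000 bases in all, far longer than a histone coding sequence, which lowers the values of those genes on this scale.

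At 24 h the histone mRNAs were lower in GFP low cells in every class. Of 58 tested members 51 fell, against 28.5% of the 16474 genes tested. None rose in edgeR, at an unadjusted p under 0.05 or in DESeq2, against 29.3% of all genes that rose. The median log2 fold change of the members was -1.02, a 2.03-fold lower level, beside 0.03 for all genes tested. The 3 libraries of GFP low did not overlap those of GFP high in 52 members. Overlap was not counted over all genes, so that count has no share to stand against. In bulk RNA fewer cells that make a transcript and less of it per cell cannot be told apart.

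H1-5 (ENSG00000184357.5, chromosome 6, 27866792 to 27867588), a linker histone, had the largest called fall. Its level was 679, 657 and 713 CPM in GFP high and 222, 213 and 230.2 CPM in GFP low at 24 h. All GFP low libraries lay far below the GFP high range, with a log2 fold change of -1.62 ± 0.04 (SE) and an edgeR adjusted p of 1.9e-18. H1-3 fell by 1.46 ± 0.05 on the log2 scale, and H1-4 and H1-2, the other linker histones, by 1.02 ± 0.03 and 0.98 ± 0.03.

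Among the core histones, H3C2 (ENSG00000286522.2, 26031589 to 26032099) had 367, 370.1 and 393 CPM in GFP high and 185, 184 and 191 in GFP low. H4C2 (ENSG00000278705.2, 26025952 to 26027283) had 168, 172 and 177 against 78.2, 78.2 and 81.9 CPM. The groups of both genes were far apart, with log2 fold changes of -1.01 ± 0.03 and -1.12 ± 0.03. H2AC11 (ENSG00000196787.3, 27133042 to 27135291) had 229, 226 and 246 against 114, 109.5 and 119.9 CPM, a change of -1.03 ± 0.05. H2BC5 (ENSG00000158373.8, 26158146 to 26171349) had 346, 328 and 346 against 192.5, 187 and 197.5 CPM, a change of -0.82 ± 0.05. No library of GFP low reached the GFP high range in any of these 4 genes, whose largest edgeR adjusted p was 2.7e-12.

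The class medians at 24 h were -1.24 for H1, -1.14 for H2A, -0.90 for H2B, -1.01 for H3 and -1.02 for H4. H2B included the smallest called falls, in H2BC7 (-0.60 ± 0.05) and H2BC15 (-0.68 ± 0.04). The 7 members that were not called were H2AC19, H2BC6, H3C6, H3C14, H3C15, H4C14 and H4C15, all with means under 10 CPM, and with the library set as a block 5 of these, all but H2BC6 and H3C6, fell as well (31.8% of all genes fell in that fit). H2BC6 had the highest log2 fold change (-0.29 ± 0.24, edgeR adjusted p = 0.32), with 1.52, 1.99 and 1.59 CPM in GFP high and 1.41, 1.77 and 1.07 in GFP low, ranges that overlap. H2AC19 had the lowest (-1.69 ± 0.90, adjusted p = 0.12, or 7.55e-08 with the library set as a block), with 0.914, 3.75 and 0.71 CPM against 0.30, 1.31 and 0.164. In both groups of H2AC19 the library of set 1 was several times above the others.

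**Figure D1:**
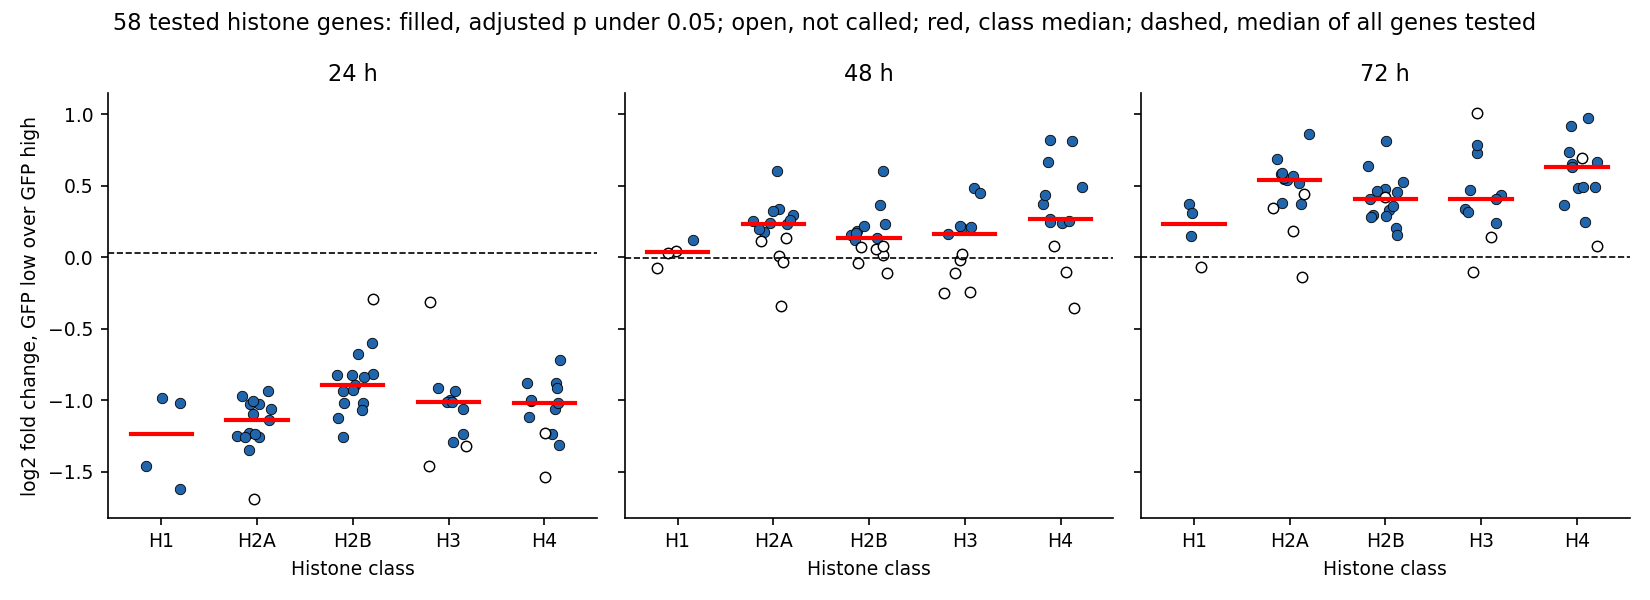
Log2 fold change of GFP low over GFP high (vertical axis) for the 58 tested histone genes by class (horizontal axis) at 24, 48 and 72 h, with called genes filled, genes that were not called open, class medians in red and the median of all tested genes dashed. All 51 called genes lie below 0 at 24 h, and all 36 and 47 called genes lie above 0 at 48 and 72 h.

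Annotated exon length moved with the 24 h difference. Other protein-coding genes of up to 1000 bases had a median log2 fold change of -0.50 at 24 h (124 genes, 75 lower and 3 higher), against 0.02 for the 11062 longer ones. By annotated length the members did not follow that slope among themselves. The 36 tested members of up to 1000 bases and the 22 longer ones both had a median of -1.02. Annotated length need not be mRNA length here. In H2AC11 and H2BC21, among the longer ones, the annotation runs 1761 and 1729 bases past the stem-loop. These medians, and the fit below on the same annotated length, therefore do not show how mRNA length bears on the members. With each library's trend on exon length removed, 36 members fell, against 22.3% of all genes in that fit, and the median was -0.36, beside 0.14 for all genes, with -0.54 for H1, -0.36 for H2A, -0.16 for H2B and -0.40 for both H3 and H4. H2BC7 was then no longer called (-0.06, adjusted p = 0.29), nor was H4C3 (-0.09, adjusted p = 0.058).

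**Figure D2:**
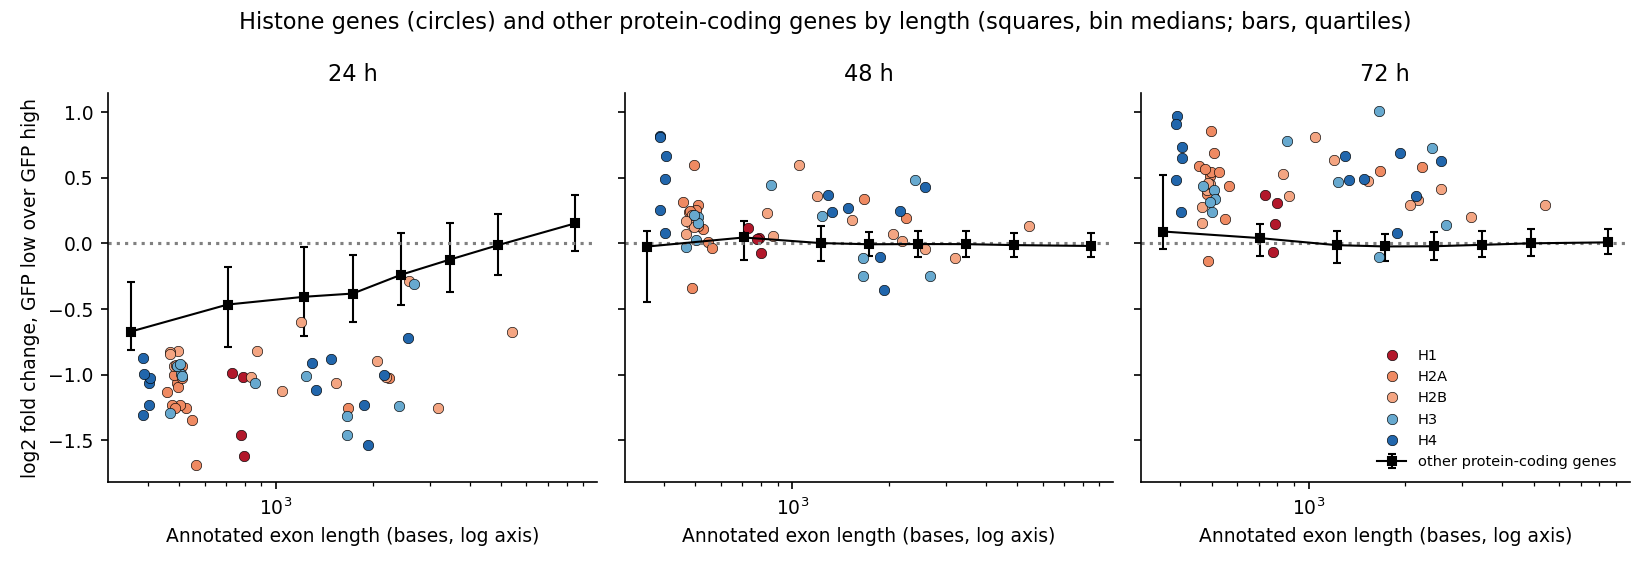
Log2 fold change of GFP low over GFP high (vertical axis) against annotated exon length in bases (horizontal log axis) at 24, 48 and 72 h, for histone genes (circles, coloured by class) and for other protein-coding genes (black squares, medians of length bins, with quartiles as bars). At 24 h the bin medians run from -0.67 for the shortest genes to 0.15 for the longest and the histone medians lie below them, while at 48 and 72 h the bins are near 0 and most histone genes lie above them.

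Most other short RNAs without a poly(A) tail that were listed had few counts or none. All 10 were in the table, but RN7SL2, RN7SK, RMRP, RPPH1 and RNU12 had a mean of 0 CPM in every group. The reason was not tested. Of the 10, 4 were tested: RN7SL1, the RNA of the signal recognition particle, and the minor spliceosome RNAs RNU11, RNU4ATAC and RNU6ATAC. All but RN7SL1 had group means of at most 3.70 CPM. At 24 h 3 of the 4 fell (2 in DESeq2), with a median of -1.01. RN7SL1 changed by -0.80 ± 0.13 and RNU6ATAC by -1.52 ± 0.27 (edgeR adjusted p = 1.2e-05 and 4.6e-05). RN7SL1 averaged 2097 ± 112 CPM (SD, n = 3) in GFP high and 1204 ± 220.1 in GFP low at 24 h. At 48 h RN7SL1 alone was called, at 1.00 ± 0.13, and the median was 0.17. At 72 h the same RNAs had a median of 1.12 and 3 of the 4 rose, RN7SL1 by 1.32 ± 0.13 (adjusted p = 7.5e-08). The part of transcript length and of such RNAs in the histone differences was not tested beyond the values given here.

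At 48 h the direction had turned. Histone mRNAs were slightly higher in GFP low: 36 of 58 members rose, against 10.6% of all genes, with a median of 0.18 beside -0.01 for all genes. None fell in edgeR or DESeq2, with 1 below 0 at an unadjusted p under 0.05, against 13.2% of all genes that fell. The class medians were 0.27 for H4, 0.23 for H2A, 0.16 for H3, 0.13 for H2B and 0.04 for H1. With the library set as a block, 40 members rose and 2, H1-5 and H2BC18, fell, in a fit where 15.4% of all genes rose and 19.7% fell.

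The H4 gene H4C3 stood out among the well-expressed members at 48 h. It had 76.2, 70.4 and 73.5 CPM in GFP high and 122, 109.2 and 117 CPM in GFP low. Every GFP low library was above the GFP high range, by a log2 fold change of 0.66 ± 0.04 (edgeR adjusted p = 1.6e-10). The near-identical H4C11 had the highest value, 0.82 ± 0.14, with 2.58, 2.77 and 3.10 against 4.62, 4.99 and 5.41 CPM. H2AC15 and H2BC11 each rose by 0.60, with SEs of 0.07 and 0.03. The lowest value was that of H4C15 (-0.36 ± 0.95, adjusted p = 0.85), at 0.212, 1.115 and 0.147 against 0.146, 0.79 and 0.21 CPM, with overlapping groups.

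The members with the highest mean CPM of each class differed at this time. H1-5 had 592, 574 and 632 CPM in GFP high and 561, 559 and 588 in GFP low, ranges that overlap, with a log2 fold change of -0.08 ± 0.04 (edgeR adjusted p = 0.18, or 3.18e-10 with the library set as a block). H4C2 had 104, 108 and 106 against 123, 126 and 126 CPM and rose by 0.24 ± 0.03. H3C2 had 225, 226 and 241 against 253, 256 and 264 CPM and rose by 0.16 ± 0.03. H2AC11 rose by 0.20 ± 0.05 (adjusted p = 0.0072), from 149, 143 and 163 to 183, 178 and 162 CPM, with set 2 of GFP low inside the GFP high range. Without set 1 of GFP high, H2AC11 was not called (0.15, adjusted p = 0.056). H2BC5 had 219, 214 and 227 against 239.8, 203 and 244 CPM and was not called (0.06 ± 0.05, adjusted p = 0.43, or 0.022 with the library set as a block).

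At 72 h the excess in GFP low was larger. Of 58 members 47 rose, against 12.9% of all genes, with a median of 0.45, a 1.36-fold higher level, beside 0.00 for all genes. None fell in edgeR, at an unadjusted p under 0.05 or in DESeq2, against 13.5% of all genes that fell. All 42 core members with a mean of 10 CPM or more rose. The class medians were 0.63 for H4, 0.54 for H2A, 0.41 for H3, 0.40 for H2B and 0.23 for H1.

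H2BC11 (ENSG00000124635.9, 27125897 to 27132795) had the smallest adjusted p of the members at 72 h. It had 131, 125 and 129 CPM in GFP high and 222, 218 and 234 in GFP low. The groups were wide apart, with a log2 fold change of 0.81 ± 0.03 (edgeR adjusted p = 4.1e-14). H4C11 rose by 0.97 ± 0.12, from 4.70, 6.21 and 6.40 to 10.55, 11.1 and 12.5 CPM, and H2AC15 by 0.86 ± 0.06. H3C12 and H4C3 rose by 0.79 ± 0.04 and 0.74 ± 0.04.

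Of the 4 tested linker histones 3 rose. H1-5 had 531, 523 and 564 CPM in GFP high and 658, 645 and 703 in GFP low at 72 h, a change of 0.31 ± 0.04 (edgeR adjusted p = 3.6e-06). H1-2 rose by 0.37 ± 0.03 and H1-4 by 0.15 ± 0.03, and H1-3 was not called (-0.07 ± 0.04, adjusted p = 0.29). H3C2 rose by 0.34 ± 0.03, from 299, 308 and 320 to 379, 385 and 406 CPM. H4C2 rose by 0.48 ± 0.03, from 141, 146 and 151 to 199, 206 and 208 CPM. H2AC11 rose by 0.58 ± 0.05, from 181, 174 and 189.6 to 266.5, 263 and 287 CPM. H2BC5 rose by 0.36 ± 0.05, from 286, 280.0 and 298 to 375, 352 and 381 CPM. In H1-5, H1-2, H1-4 and these 4 core genes every GFP low library was above every GFP high library, while the fractions overlapped in H1-3. The extremes over all tested members were weakly expressed and not called: H2AC17 (-0.14 ± 0.26) at 1.25, 1.24 and 1.25 against 1.42, 1.08 and 0.927 CPM, and H3C14 (1.01 ± 0.87, edgeR adjusted p = 0.44, or 0.0338 with the library set as a block) at 0.06105, 0.573 and 0.117 against 0.123, 1.04 and 0.357 CPM.

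Summed over a class, the turn was visible in every library. The H2B genes together gave 2677 ± 92.7 CPM (SD, n = 3) in GFP high and 1422 ± 48.7 in GFP low at 24 h. The same sums were 1758 ± 54.9 and 1946 ± 90.3 at 48 h, then 2274 ± 62.3 and 3009 ± 68.05 at 72 h. The H4 genes gave 951 ± 24.1 and 472 ± 11.99, then 527 ± 13.2 and 671 ± 18.2, then 786 ± 19.1 and 1144 ± 20.4. The order of the fractions turned between 24 and 48 h in both classes, and the gap at 72 h was larger than at 48 h. The H2A genes went from 1120.2 ± 57.9 and 516 ± 24.5 to 921 ± 35.1 and 1333 ± 57.8 at 72 h, and the H3 genes from 1122 ± 45.3 and 548 ± 19.5 to 912 ± 39.3 and 1244 ± 49.4. In all 4 core classes the fractions did not overlap at any time. The H1 genes gave 1628 ± 50.8 and 687 ± 19.3 at 24 h, 1351 ± 40.3 and 1363 ± 40.6 at 48 h, where the libraries overlap, and 1373 ± 47.8 and 1655 ± 66.1 at 72 h. All 68 genes together took 0.725% ± 0.0233 of the counts in GFP high and 0.385% ± 0.0112 in GFP low at 24 h, and 0.620% ± 0.0187 and 0.824% ± 0.0234 at 72 h.

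**Figure D3:**
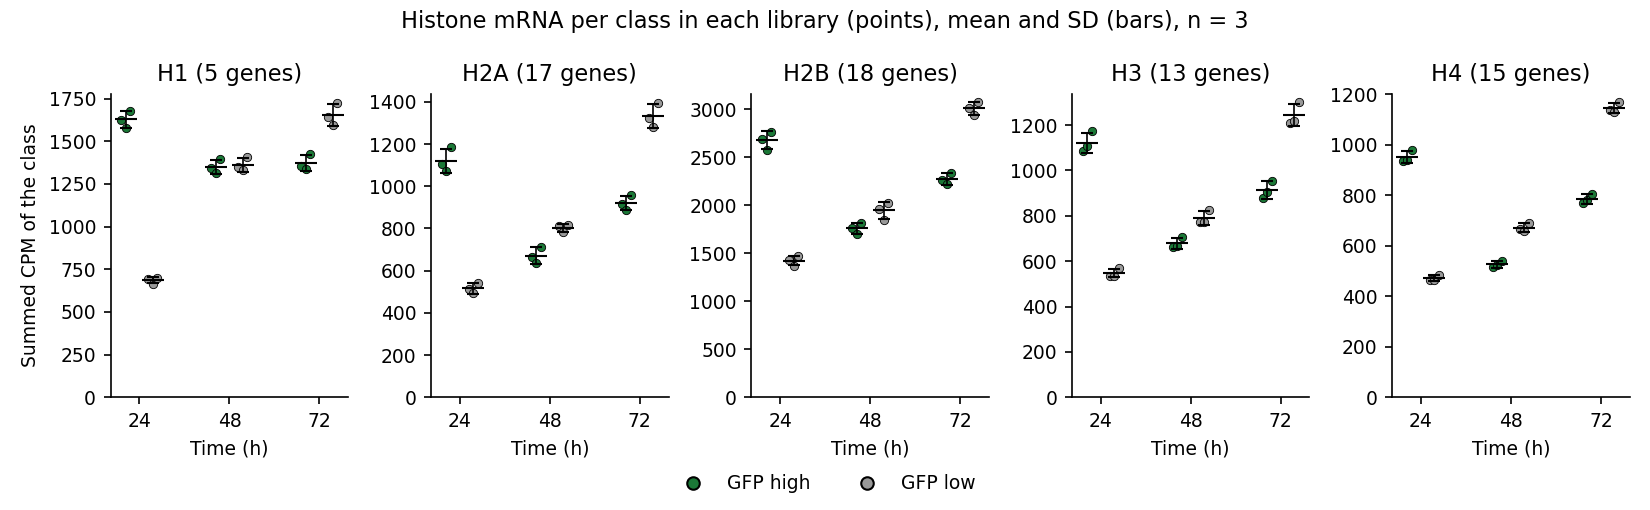
Summed CPM of each histone class (vertical axes, from 0) by time in hours (horizontal axis) in GFP high (green) and GFP low (grey), with 1 point per library and bars for the mean and SD of 3 libraries. GFP low lies below GFP high in every class at 24 h and above it in every class at 72 h, and only H1 overlaps at 48 h.

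Both fractions changed over time. In GFP high, 48 of 58 members fell from 24 to 48 h (9.97% of all genes fell), with a median of -0.70, and 48 rose from 48 to 72 h (13.7% of all genes rose), with a median of 0.44. H1-5 was the member that fell in GFP high from 48 to 72 h, by 0.15 ± 0.04 on the log2 scale (edgeR adjusted p = 0.0057), where 14.2% of all genes fell. That call was lost without set 2 of GFP high at 48 h. In GFP low, 48 rose from 24 to 48 h (25.7% of all genes rose), with a median of 0.49, and 49 rose from 48 to 72 h (13.9% of all genes rose), with a median of 0.69. The rise in GFP low from 24 to 48 h depended on the length trend: with that trend removed, 19 members rose (22.1% of all genes) and 14 fell (28.1% of all genes). Other protein-coding genes of up to 1000 bases had a median of 0.38 in the same comparison without the correction. With the same correction 46 members fell in GFP high from 24 to 48 h (7.68% of all genes), 46 rose there from 48 to 72 h (12.4%) and 48 rose in GFP low from 48 to 72 h (11.3%). The GFP difference itself rose from 24 to 48 h in 48 members (22.1% of all genes) and from 48 to 72 h in 29 (5.18% of all genes), or in 19 without the unnumbered GFP low library at 48 h. Of the 58 tested members, 52 had their lowest group mean in GFP low at 24 h, and 50 had their highest in GFP low at 72 h. The lowest and highest groups were not counted over all genes, so these counts have no share to stand against.

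The linker and core histones differed in these courses. In GFP high from 24 to 48 h the H1 median was -0.25 and the H4 median -0.91, and H1 members ranged from -0.36 to -0.17. In GFP low over the same interval the H1 median was 1.03, with H1-5 at 1.36 ± 0.04 and H1-3 at 1.32 ± 0.05, while the medians of the core classes were 0.60 for H2A, 0.49 for H2B, 0.46 for H3 and 0.44 for H4. From 48 to 72 h in GFP low the H1 median was 0.26 against 0.88 for H4 and 0.85 for H2A. All 4 tested H1 genes are of 731 to 797 bases, and with the length trend removed the H1 median in GFP low from 24 to 48 h was 0.53 and the H4 median -0.08. The differences between classes are given as a description and were not tested.

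As a share of all histone CPM within a library, which does not depend on the scaling between libraries, H1 made up 21.7% ± 0.119 (SD, n = 3) in GFP high and 18.9% ± 0.232 in GFP low at 24 h. The shares were 27.1% ± 0.0918 and 24.5% ± 0.243 at 48 h and 21.9% ± 0.0961 and 19.7% ± 0.186 at 72 h. H1 thus took the smaller share in GFP low at each time, and no library of one fraction entered the range of the other. H4 went the other way at 48 and 72 h, with 10.6% ± 0.224 in GFP high against 12.05% ± 0.114 in GFP low at 48 h, and 12.5% ± 0.194 against 13.7% ± 0.179 at 72 h. H2B made up 35.7% ± 0.407 of the GFP high libraries' histone CPM at 24 h, against 39.0% ± 0.219 in GFP low.

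**Figure D4:**
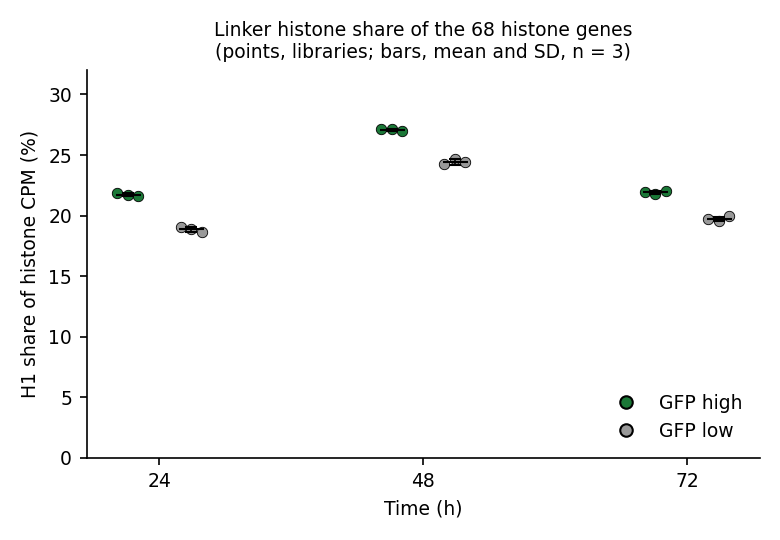
H1 genes as a percent of the CPM of all 68 histone genes (vertical axis, from 0) by time in hours (horizontal axis) in GFP high (green) and GFP low (grey), with 1 point per library and bars for the mean and SD of 3 libraries. The share is higher at 48 h in both fractions and lower in GFP low than in GFP high at each time, 18.9% against 21.7% at 24 h.

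H2A and H2B genes can sit head to head over a shared stretch of promoter DNA. Pairs were counted where neighbours on opposite strands face away from each other with a gap of at most 1000 bases. This gave 11 pairs, with 215 to 283 bases between the genes. H2AC15 and H2BC15, which start near each other on opposite strands but overlap, were not counted as a pair. Both genes were tested in 9 of the 11. In 7 of the 9 the H2A gene fell further than its H2B neighbour at 24 h, with a median gap of -0.30 in log2 fold change. H2AC14 and H2BC14 were at -1.23 and -0.83, and H2AC6 and H2BC4 at -1.25 and -1.02. At 72 h the H2A gene had the higher value in 5 of 9 pairs. H2AC11 and H2BC11, whose windows are printed above, were at -1.03 and -1.13 at 24 h. Their values were 0.20 against 0.60 at 48 h and 0.58 against 0.81 at 72 h. The low-level H2AC7 and H2AC17, which have the annotation limit given above, are in 2 of the pairs. H2AC13, H2AC14, H2AC20 and H2BC12, which share over 20% of their words with another gene, are each in a further pair. In all the pairs with either limit the H2A gene fell further at 24 h. Of the pairs with neither limit, H2AC6 fell further than H2BC4. H2AC8 (-1.02 against -1.07 for H2BC8) and H2AC11 fell less than their neighbours.

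H2A and H2B genes with and without the octamer had similar medians. Among tested members with a window, the 22 with ATTTGCAT had medians of -1.02, 0.17 and 0.47 at 24, 48 and 72 h, and the 7 without it -0.97, 0.13 and 0.38. The 12 H2B genes with it were at -0.91 at 24 h and the 3 without it at -0.82.

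By genomic cluster, 46 tested members were on chromosome 6, 11 on chromosome 1 near 150 Mb and 1, H4C16, on chromosome 12. On chromosome 6, 44 of 46 fell at 24 h, 33 rose at 48 h and 41 rose at 72 h, with medians of -1.01, 0.21 and 0.46. Its 3 stretches with tested members (26017032 to 26285638, 27125897 to 27147562 and 27807444 to 27893891) had medians of -1.01, -1.03 and -0.9995 at 24 h and 0.41, 0.59 and 0.42 at 72 h. Of the 11 genes on chromosome 1, which include 9 of the 14 with near-identical copies, 6 fell at 24 h, 2 rose at 48 h and 5 rose at 72 h, with medians of -1.29, -0.03 and 0.44. Over all genes tested 28.5% fell at 24 h, 10.6% rose at 48 h and 12.9% rose at 72 h. The chromosome 1 genes not called at 24 h were H2AC19, H3C14, H3C15, H4C14 and H4C15, all with means under 10 CPM. With the library set as a block these were lower at 24 h too, in a fit where 31.8% of all genes fell.

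The member with the highest mean CPM on chromosome 1 was H2BC18 (ENSG00000203814.6, 149782689 to 149812373). It had 241, 238 and 261 CPM in GFP high and 102, 95.9 and 111 in GFP low at 24 h, 162, 153 and 174 against 148, 145 and 159 at 48 h, and 203, 200.5 and 216 against 241, 237 and 236 at 72 h. Its log2 fold changes were -1.26 ± 0.05, -0.11 ± 0.05 (edgeR adjusted p = 0.12, or 0.0018 with the library set as a block) and 0.20 ± 0.05, so the fractions overlapped at 48 h only. H4C16 (ENSG00000197837.3, chromosome 12, 14767999 to 14771131) had 65.1, 67.4 and 68.3 CPM against 39.5, 39.1 and 42.9 at 24 h, 41.0, 39.5 and 42.6 against 53.4, 53.7 and 59.0 at 48 h, and 46.9, 46.8 and 50.4 against 70.9, 74.4 and 78.2 at 72 h. It changed by -0.72 ± 0.05, 0.43 ± 0.05 and 0.63 ± 0.05, and its fractions were apart at each time. Within class H4 its fall at 24 h was the smallest.

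Genes that act on histone mRNA or use the same S phase program were counted from lists chosen with earlier results of these data known. The counts stand against all genes tested, of which 29.3% were called higher and 28.5% lower at 24 h. The same shares were 10.6% and 13.2% at 48 h, then 12.9% and 13.5% at 72 h. All list values come from the fit with the length trend left in, and exon length moved with the 24 h difference. Listed genes differ in that length: PCNA and RRM2, which fell, have 1403 and 9153 bases. RFC1 and NPAT, which rose, have 6719 and 7530. The part of length in the list counts was not tested. Of 44 replication genes 32 fell and 5 rose at 24 h, with a median of -0.30. PCNA, the polymerase clamp, fell by 0.89 ± 0.02 on the log2 scale, GINS2 by 0.78 ± 0.03 and RRM2, a subunit of ribonucleotide reductase, by 0.62 ± 0.02. RFC1, POLE and CLSPN were among the 5 that rose, RFC1 by 0.23 ± 0.03. At 48 h 6 of the 44 rose and 4 fell, and at 72 h 4 rose and 7 fell, shares near those of all genes, with medians of 0.01 and -0.00. PCNA was still lower at 72 h (-0.14 ± 0.02, edgeR adjusted p = 9.4e-05), while DTL, TYMS and GINS3 were higher by 0.19 ± 0.03, 0.13 ± 0.03 and 0.10 ± 0.03.

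Of the 16 regulators of histone transcription and S phase entry, 8 rose and 5 fell at 24 h, the falls at a share near that of all genes. NPAT, the coactivator of histone genes at histone locus bodies, was higher (0.33 ± 0.03, edgeR adjusted p = 1.8e-09) with 102 ± 2.54 CPM (SD, n = 3) in GFP low against 81.4 ± 1.48 in GFP high. CASP8AP2 and GON4L were higher by 0.49 ± 0.03 and 0.54 ± 0.03. CCNA2, cyclin A, fell by 0.84 ± 0.02 and the E2F partner TFDP1 by 0.43 ± 0.02 on the log2 scale. At 48 h 2 rose and 1 fell: CCNE2 and CCNE1, the E cyclins, rose by 0.28 ± 0.04 and 0.24 ± 0.05, and CCNA2 fell by 0.14 ± 0.02. At 72 h 7 rose and 2 fell, and NPAT was not called at 48 or 72 h (-0.07 ± 0.03 and -0.02 ± 0.03).

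SLBP, the stem-loop binding protein, stood at 123 ± 0.748 CPM (SD, n = 3) in the GFP high libraries at 24 h and at 91.7 ± 1.59 in the GFP low ones, a change of -0.42 ± 0.03 (edgeR adjusted p = 7.9e-12). At 48 and 72 h it was not called (0.00 ± 0.03 and -0.05 ± 0.03, adjusted p = 0.97 and 0.15). Of 16 tested factors of histone 3′ end processing at 24 h 9 fell and 3 rose. At 48 h the counts were 2 and 2, and at 72 h 2 and 3. The Sm proteins SNRPG, SNRPE and SNRPF fell by 1.03 ± 0.05, 0.61 ± 0.03 and 0.62 ± 0.04 on the log2 scale at 24 h. ZNF473, a U7 snRNP-associated zinc finger protein, was higher at each time (0.50 ± 0.04, 0.15 ± 0.04 and 0.12 ± 0.04). Of 9 factors of histone mRNA decay, 7 rose at 24 h, led by the uridyltransferase TUT7 (0.51 ± 0.03), and 2 fell, LSM1 and ERI1, the nuclease of the stem-loop. At 48 h none of the 9 was called in edgeR or DESeq2, with 1 in each direction at an unadjusted p under 0.05.

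The replacement histones, whose mRNAs are in the main polyadenylated and made outside S phase too, were counted apart from the members. Of 9 tested, 7 fell at 24 h with a median of -0.50. H2AZ1, a variant of H2A, fell by 0.88 ± 0.02, H3-3B by 0.50 ± 0.02 and CENPA, the centromeric H3, by 0.76 ± 0.05. At 48 h 5 fell, and at 72 h 2 fell, MACROH2A1 (-0.28 ± 0.02) and CENPA (-0.20 ± 0.04). None rose at any time, in edgeR, at an unadjusted p under 0.05 or in DESeq2. Of 22 histone chaperones and assembly factors at 24 h 11 fell and 5 rose. The counts were 7 and 2 at 48 h, and 4 and 3 at 72 h. ASF1A, a chaperone of H3 and H4, was lower at each time (-1.03 ± 0.04, -0.28 ± 0.04 and -0.28 ± 0.04).

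**Figure D5:**
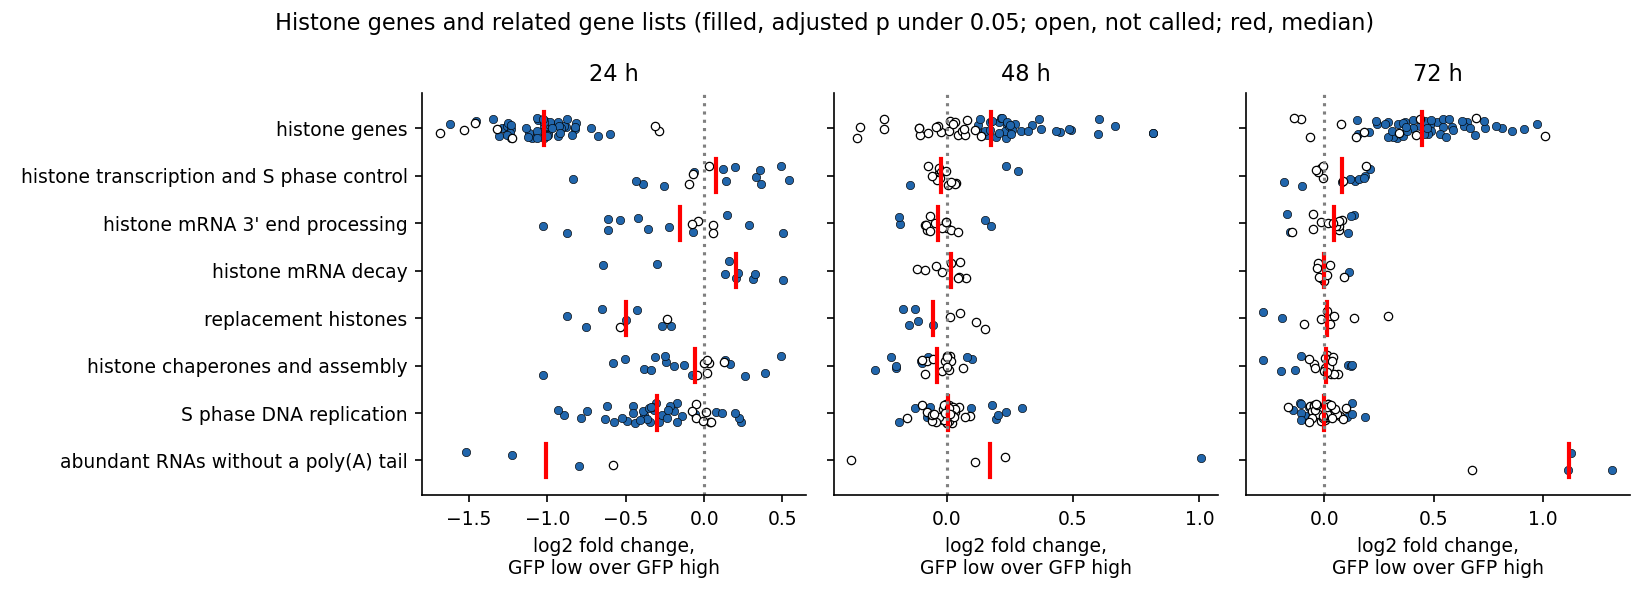
Log2 fold change of GFP low over GFP high (horizontal axis) at 24, 48 and 72 h for the tested histone genes and for the genes of 7 related lists (rows), with called genes filled, others open and list medians in red. At 72 h the histone median is 0.45 and that of the 4 RNAs without a poly(A) tail 1.12, while the medians of the other lists lie between -0.00 and 0.08.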

How the data were processed

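Raw counts per gene were deposited by the authors as whole numbers for 18 libraries. The submitters' processing notes name FastQC, STAR, featureCounts (Subread), R 4.2.1 and hg38, and per the labels' protocols libraries were made with ribosomal RNA depletion. The sources used here do not state the strand and multi-mapping settings of the counting. The deposited exon length per gene, in bases, came from the same table. Columns name a group but not which of its 3 samples they hold. D1, D2 and D3 in them were read as 24, 48 and 72 h. The members and lists were chosen with earlier results of these data known. Of 60710 lines, 3 were broken and left out.

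Of 68 members, 66 were matched by gene ID and 2 by an older name. All 18 libraries were fitted together in edgeR 4.0.16 (R 4.3.3) with TMM scaling, filterByExpr (16474 genes kept) and the quasi-likelihood test. Calls were made where the p adjusted over all genes tested (Benjamini-Hochberg) was under 0.05. Residual degrees of freedom were 12. CPM is TMM-scaled. The length trend was removed with gene-wise offsets from a lowess curve (span 0.3). DESeq2 1.42.0, other scalings, no filter, only the compared groups, the library set as a block and leaving out each library were alternatives. Total counts of 27257876 to 55419458 set the counting error. The sets pair the libraries: deviations of same-set libraries from their group means correlated at 0.103 to 0.309 over 45 pairs, against a median of -0.107 for different sets, and 18 of 18 libraries correlated best within their own set. Tested on simulated data for GFP low against high at 24 h (16053 genes), 18 of 50 genes changed 1.2-fold, 41 of 50 changed 1.5-fold, 42 of 50 changed 2.0-fold and 47 of 50 changed 3.0-fold were recovered, with 6 false calls. The simulation had the same spread for each gene, no library sets and most genes unchanged. Its counts are thus not error rates for these data. Values in every library are given for the member with the highest mean CPM in each class, the members with extreme fold changes and the member with the highest mean CPM in each other cluster. From the other lists, up to 3 called genes in each direction by adjusted p were eligible to be named, plus SLBP, NPAT and SMARCA4. Other members named were chosen after their values were seen. The stem-loop was searched in GENCODE 29 UTRs.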

Additional observations from a re-analysis of the deposited data

Results flagged for a closer look

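The difference between GFP low and GFP high itself changed over time, by a test of the difference between times in edgeR. From 24 to 48 h it rose in 48 of 58 histone genes, with H4C11 the largest called change at 1.81 on the log2 scale and H2BC15 the smallest at 0.81. In the same test 22.1% of all genes rose. From 48 to 72 h it rose in 29 of 58, where 5.18% of all genes rose, with H3C13 the largest at 0.46 and H3C2 the smallest at 0.18. Without the unnumbered GFP low library at 48 h the second count was 19.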

How the results depend on the processing

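The medians over all tested histone genes in GFP low against high at 24, 48 and 72 h kept their sign under the alternatives run. In GFP low from 24 to 48 h, with the length trend removed, the medians of H3 (-0.02) and H4 (-0.08) turned below 0. With the library set as replicate block, 2 members were lower at 48 h, and with the block and the length trend removed 2 were lower at 48 h, 1 at 72 h and 1 in the change from 48 to 72 h. The block moved no other count of members by over 1.5 times. In the rise in GFP low from 24 to 48 h, 19 members rose and 14 fell with the length trend removed, and 19 rose and 18 fell with the block as well. With that trend removed 1 member fell at 48 h, as with no filter on low counts. The median at 24 h was -0.89 with library totals in place of TMM, which moved the median of all genes to 0.16, and -0.36 with the length trend removed, with or without the block. The median at 72 h was 0.37 in both length fits. Leaving out each library in turn gave 0 to 1 members lower at 48 h, 0 to 1 lower in GFP high from 48 to 72 h, and 19 to 33 with a rising difference from 48 to 72 h. The first count was 1 without GFP high set 1 at 48 h, the second 0 without GFP high set 2 at 48 h, and the third 19 without the unnumbered GFP low library at 48 h. The causes were not tested. Counting error limits the 12 tested members under 10 CPM most.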

Other observations

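Library set 1 stood apart in near-identical copies on chromosome 1. H4C14, H3C14, H2AC19, H3C15 and H4C15 had 3.31 to 6.41 times the level in set 1 that they had in the mean of the other sets, while the other 53 tested members had 0.895 to 1.76 times. These 5 genes were chosen after their values were seen. None of them was called at 24, 48 or 72 h in the edgeR fit of all libraries with the low-count filter and no block. With no filter H2AC19, H3C14 and H4C15 were lower at 24 h (adjusted p = 5.64e-10, 0.0146 and 2.88e-05), and H2AC19 was also called with only the compared groups in the fit (0.0434) and without GFP low set 1 at 24 h (0.0334). With the library set as a block, all 5 were lower at 24 h (adjusted p from 7.55e-08 for H2AC19 to 0.0179 for H3C14), and H3C14 and H4C15 were higher at 72 h (0.0338 and 0.0443).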
